A study of Homo sapiens with 16 samples.

Results

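The 39 coding HOX genes were taken as the rows of the count table whose symbol is HOX, a cluster letter from A to D and a number, 39 of 59428 rows in all. RNA sequencing of 3' transcript ends (QuantSeq) had been performed on OVCAR3 and UWB1.289, commercial lines (ATCC) of epithelial ovarian carcinoma. BRCA1, a gene of homologous recombination repair, is intact in the former and carries a deleterious mutation in the latter. Each line was exposed for 96 h either to the solvent DMSO or to olaparib, an inhibitor of poly-ADP-ribose polymerase (PARP), at a dose of 7.5 µM for OVCAR3 or of 3.5 µM for UWB1.289, with 4 libraries in each of the 4 groups. OVCAR3 was grown in RPMI 1640 with FBS and insulin and UWB1.289 in a mixture of MEGM and RPMI 1640 with FBS, so that line, BRCA1 status, medium and dose cannot be told apart, and each BRCA1 state is represented by 1 line.

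HOX genes encode homeodomain transcription factors that give cells of the embryo their position along the body axis. They lie in 4 clusters, and a gene's order in its cluster follows the place and time of its use, with low numbers used towards the head and high numbers towards the tail. Genes of equal number in different clusters are called paralogues. In the Müllerian duct, from which the female reproductive tract arises, HOXA9, HOXA10, HOXA11 and HOXA13 are used from the oviduct down to the vagina, and adult tissues and serous ovarian carcinomas keep part of such codes.

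On hg38, the HOXA cluster (11 genes, minus strand) spans chr7:27092993-27200091, the HOXB cluster (10 genes, minus strand) chr17:48528526-48728750, the HOXC cluster (9 genes, plus strand) chr12:53938831-54056030 and the HOXD cluster (9 genes, plus strand) chr2:176092721-176190907. The part that all members share is the homeobox, the stretch of 180 bases that encodes the DNA-binding homeodomain. It was found in 39 of 39 members. Between genes of the same paralogue group the homeoboxes were identical at a median of 81.7% of bases (69.4 to 90.6% over 42 pairs), against 61.4% between genes of the same cluster (172 pairs) and 60.0% between all others (527 pairs).

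The homeoboxes of the paralogues HOXA4 and HOXC4 are shown because their sequences are alike while their counts in UWB1.289 were not: with DMSO, HOXA4 was expressed there and HOXC4 was at the floor, although both were expressed in OVCAR3. The sequences are from hg38, 5′ to 3′ on the coding strand, at chr7:27129366-27129545 (minus strand, HOXA4) and chr12:54054876-54055055 (plus strand, HOXC4), both in coding exons. Capitals mark the 39 bases of HOXC4 that differ from HOXA4.
HOXA4 homeobox: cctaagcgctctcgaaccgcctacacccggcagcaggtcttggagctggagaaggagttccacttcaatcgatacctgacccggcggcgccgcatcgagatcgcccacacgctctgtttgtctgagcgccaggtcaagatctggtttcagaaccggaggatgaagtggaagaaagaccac
HOXC4 homeobox: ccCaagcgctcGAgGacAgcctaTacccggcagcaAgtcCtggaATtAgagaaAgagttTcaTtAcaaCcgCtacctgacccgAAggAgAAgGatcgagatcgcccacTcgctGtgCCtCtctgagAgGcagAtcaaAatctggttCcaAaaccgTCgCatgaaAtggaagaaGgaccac

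Promoter sequences (300 bases, from 250 before to 50 after the start) were matched for 20 of the 39 members. The promoters of HOXA4 and HOXA7, which had lower counts with olaparib in OVCAR3 (HOXA7 in both lines), and of HOXD4, which was higher in UWB1.289, are shown from RefSeq on GRCh38.p14, 5′ to 3′, at chr7:27130708-27131007 (minus strand), chr7:27156626-27156925 (minus strand) and chr2:176151300-176151599 (plus strand). Capitals mark the motif CCAAT, here on the opposite strand as ATTGG.
HOXA4 promoter: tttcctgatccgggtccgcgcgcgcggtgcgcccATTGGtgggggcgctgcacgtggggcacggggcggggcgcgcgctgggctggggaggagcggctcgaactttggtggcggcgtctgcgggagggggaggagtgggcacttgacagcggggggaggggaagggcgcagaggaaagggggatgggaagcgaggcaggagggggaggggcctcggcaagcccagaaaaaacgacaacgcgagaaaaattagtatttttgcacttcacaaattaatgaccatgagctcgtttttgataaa
HOXA7 promoter: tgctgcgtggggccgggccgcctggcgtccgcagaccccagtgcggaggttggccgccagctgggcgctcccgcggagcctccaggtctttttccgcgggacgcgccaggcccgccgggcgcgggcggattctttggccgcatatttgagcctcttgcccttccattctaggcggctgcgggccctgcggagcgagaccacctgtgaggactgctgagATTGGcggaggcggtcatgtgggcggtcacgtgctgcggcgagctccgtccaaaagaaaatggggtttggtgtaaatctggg
HOXD4 promoter: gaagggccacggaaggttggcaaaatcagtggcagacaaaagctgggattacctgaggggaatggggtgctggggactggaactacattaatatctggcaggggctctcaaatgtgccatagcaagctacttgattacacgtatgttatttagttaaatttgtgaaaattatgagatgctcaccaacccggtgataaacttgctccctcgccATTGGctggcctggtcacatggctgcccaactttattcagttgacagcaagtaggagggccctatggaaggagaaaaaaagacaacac

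The HOXA4 promoter held 27 CpG dinucleotides at 63.3% GC and that of HOXA7 31 at 68.0% GC, whereas the HOXD4 promoter held 4 at 47.3% GC. Over the 27 promoters of HOX genes the median was 22 CpG (0 to 44), against 14 over all 34796 promoters. CCAAT was found on either strand in 18 of the 27 HOX promoters and in 34.6% of all promoters. TATAAA was found in 5 of 27 and in 11.6% of all. TGATTNAT, the letters of a joint PBX and HOX site, was found in 2 of 27 and in 2.82% of all. Some genes, such as HOXA3, have more than 1 promoter, and HOXB1 was the only HOXB gene matched. HOXC4 and HOXC5 share a window, which was counted for each gene, whereas over all promoters a shared sequence was counted once. A match of letters is a description of the window.

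Libraries held 5599571 to 7730228 counts. A member was called expressed in a group when its mean normalized count (TMM scaling over the 16 libraries) was above 10, at the floor when no library of the group had more than 3 counts, and low otherwise. As a check of the labelled cell type, 13 of 13 markers of serous ovarian carcinoma were expressed in OVCAR3 and 12 of 13 in UWB1.289, where WT1 had 0 counts in each DMSO library. Fibroblast, immune and endothelial markers were mostly low: 1 of 5, 0 of 4 and 0 of 3 were expressed in OVCAR3 with DMSO, and 2 of 5, 2 of 4 and 1 of 3 in UWB1.289 with DMSO. Nothing in the sources says that the replicates came from separate cultures, so p-values measure the spread between these libraries, which may be technical. In bulk RNA, fewer cells that express a gene and less RNA per cell cannot be told apart.

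With DMSO, 17 members were expressed, 14 low and 8 at the floor in OVCAR3, and 18 were expressed, 5 low and 16 at the floor in UWB1.289. The lines shared 13 expressed members, among them HOXA3, HOXA4, HOXA5, HOXA7, HOXA9, HOXA10, HOXB2, HOXB3, HOXB4, HOXB7, HOXD8 and HOXD11. HOXA2, HOXB13, HOXC4 and HOXC6 were expressed in OVCAR3 and not in UWB1.289. HOXA11, HOXD1, HOXD3, HOXD4 and HOXD9 were expressed in UWB1.289 and not in OVCAR3. The other 17 were expressed in neither line. HOXB1, HOXC5 and HOXC12 had 0 counts in all 16 libraries, which allows up to 3 counts in 103952457, and HOXA13, HOXB8, HOXC11 and HOXD12 were at the floor in all 4 groups. These limits, like all counting intervals below, cover counting error only.

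**Figure D1:**
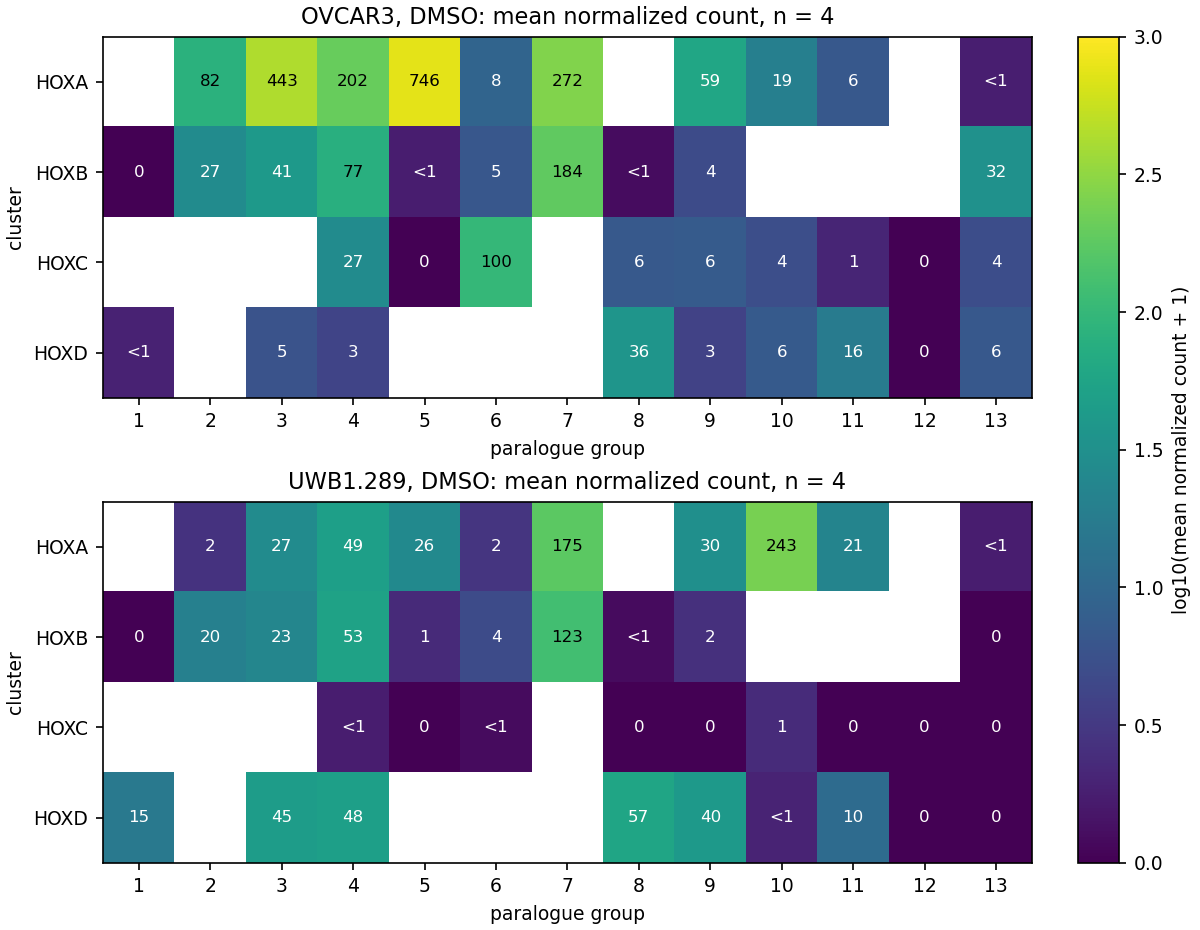
Mean normalized count of each HOX gene in the 4 DMSO libraries of OVCAR3 (top) and UWB1.289 (bottom), by cluster (rows) and paralogue group (columns), with colour on a log10 scale; white fields hold no gene or one that is not shown. The HOXC row is at or near 0 in UWB1.289, and HOXD1, HOXD3, HOXD4 and HOXD9 are filled in UWB1.289 and low in OVCAR3.

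The 4 clusters differed between the lines in their summed normalized counts. HOXA summed to 1856 ± 113 (SD, n = 4) in OVCAR3 and 593 ± 61.4 in UWB1.289 with DMSO. HOXB summed to 371 ± 25.9 and 226 ± 13.3. HOXC summed to 148 ± 21.6 in OVCAR3 and 2.29 ± 2.61 in UWB1.289, which had 10 counts for the whole cluster over 4 libraries against 584 in OVCAR3. HOXD ran the other way, with 76.0 ± 3.02 in OVCAR3 and 217 ± 40.1 in UWB1.289. The ranges of the lines did not overlap in any cluster; no test was run on these sums.

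The DMSO libraries were then compared between the lines gene by gene, by edgeR's quasi-likelihood test with Benjamini-Hochberg adjustment over all tested genes. Of the 22 members with enough counts to be tested, 12 were differentially expressed (adjusted p below 0.1, over 2-fold and an average normalized count above 10), 5 higher and 7 lower in UWB1.289. Of all tested genes, 38.4% were differentially expressed, 18.7% higher and 19.7% lower. At an adjusted p below 0.1 alone, 19 of 22 members passed, against 79.9% of all tested genes, and the groups did not overlap for 19 of 22, against 69.4%. The median log2 fold change was -0.61 over the 22 members and -0.02 over all tested genes.

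In the HOXA cluster the differences ran in opposite directions along the cluster. HOXA2, which patterns the hindbrain and second pharyngeal arch, had 82, 68, 91 and 82 counts in OVCAR3 and 4, 2, 1 and 0 in UWB1.289 (log2 fold change -5.48 ± 0.37 SE, adjusted p 3.81e-14). HOXA3, needed for the thymus and parathyroid, had 387, 376, 482 and 515 counts against 39, 14, 21 and 39 (-4.00 ± 0.157, 6.46e-20). For HOXA4 the counts were 178, 175, 237 and 210 against 41, 35, 48 and 78 (-2.04 ± 0.157, 8.52e-13). The groups were apart for all 3 genes.

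HOXA5, known from lung and mammary epithelium, had 729, 556, 740 and 946 counts in OVCAR3 and 22, 34, 20 and 28 in UWB1.289, a log2 fold change of -4.87 ± 0.146 (SE) with an adjusted p of 8.81e-23. HOXA10, which patterns the uterus, went the other way, with 22, 21, 9 and 21 counts in OVCAR3 against 261, 218, 220 and 298 in UWB1.289 (3.71 ± 0.186, adjusted p 2.81e-17). HOXA11, used in the lower uterus and cervix, had 2, 6, 6 and 9 counts against 28, 11, 18 and 32 (1.87 ± 0.406, 0.000137). So the genes from HOXA2 to HOXA5 were lower, and HOXA10 and HOXA11 higher, in UWB1.289.

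Between these stretches, HOXA7 (-0.64 ± 0.111 SE, adjusted p 6.4e-06) and HOXA9 (-0.97 ± 0.23, 0.000387) were lower in UWB1.289 by less than 2-fold. HOXA9, used in the oviduct, had 51, 54, 71 and 59 counts against 38, 21, 19 and 47, and lay so near to 2-fold that it passed the fold limit in 4 of the 8 fits that left out a DMSO library, without replicate 1 or 4 of either line. HOXA6 was low in both lines, with 5, 8, 4 and 16 counts against 1, 0, 4 and 3, and was not tested.

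**Figure D2:**
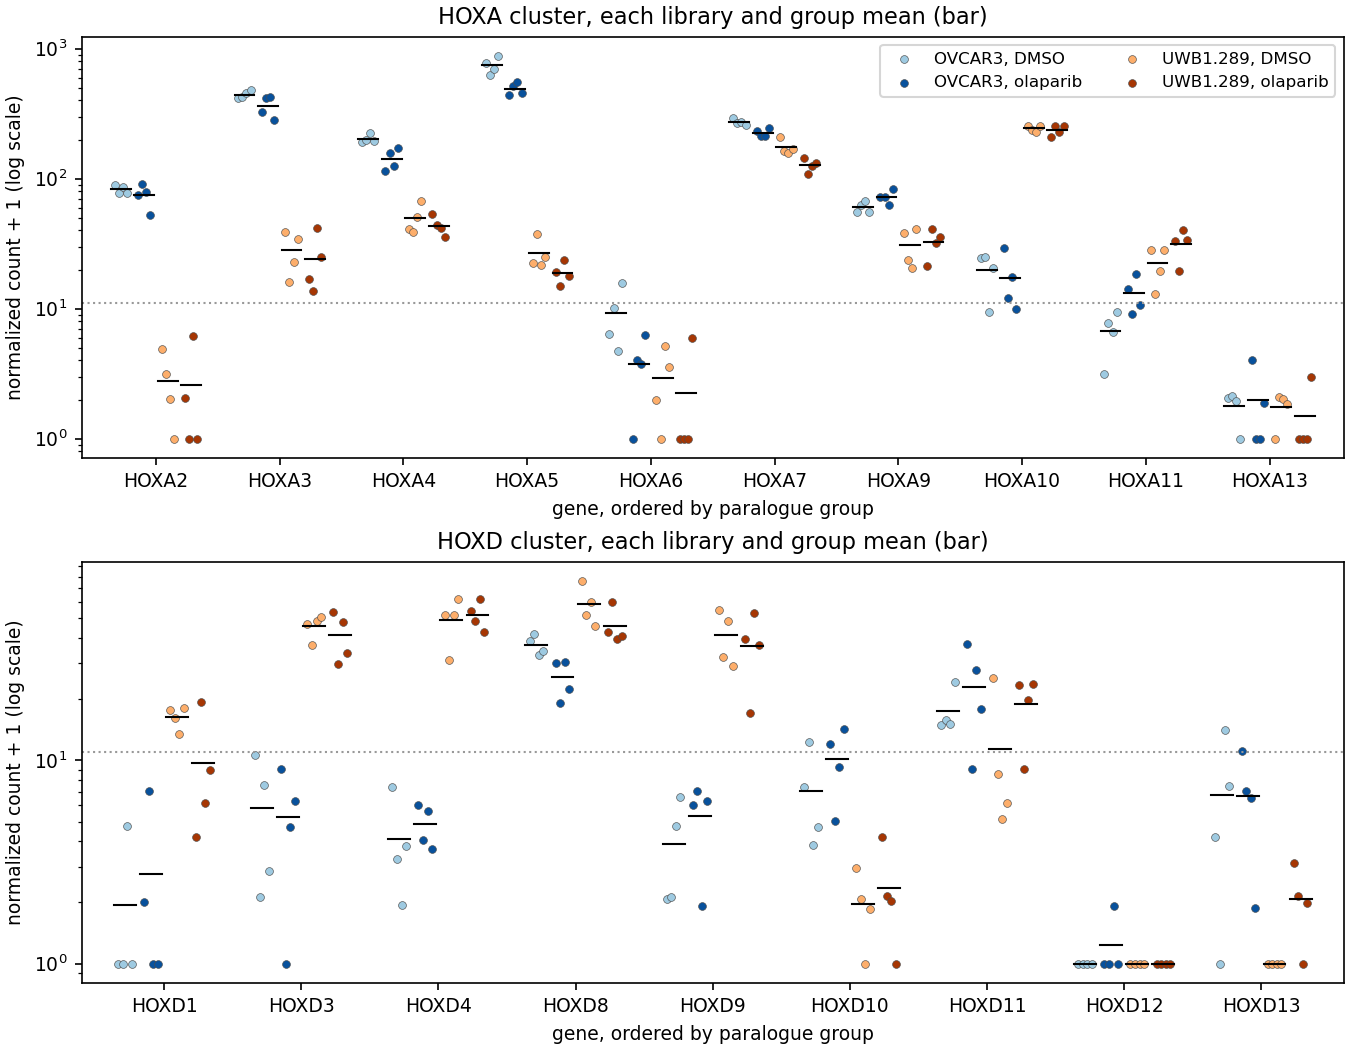
Normalized count plus 1 (log axis) of HOXA genes (top, 1 not shown) and HOXD genes (bottom) in every library, coloured by group, with the group mean as a bar; the dotted line stands for the mean count of 10 above which a gene was called expressed. HOXA2 to HOXA5 lie higher in OVCAR3, HOXA10 and HOXA11 in UWB1.289, and HOXD1, HOXD3, HOXD4 and HOXD9 in UWB1.289.

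Most of the expressed HOXB genes differed by less than 2-fold between the lines. HOXB3 (-0.84 ± 0.251 SE, adjusted p 0.00357), HOXB4 (-0.54 ± 0.172, 0.00553) and HOXB7 (-0.58 ± 0.125, 0.000121) were lower in UWB1.289 within 2-fold. HOXB4, known for its effect on blood stem cells, had 75, 71, 74 and 83 counts in OVCAR3 and 60, 48, 49 and 58 in UWB1.289. HOXB7 had 158, 188, 186 and 194 counts against 123, 129, 117 and 132. HOXB2, a hindbrain gene, did not pass the test (-0.45 ± 0.285, adjusted p 0.151).

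The exception was HOXB13, the most tail-ward gene of the cluster and a prostate gene in the adult. It had 30, 32, 34 and 29 counts in OVCAR3 and 0 in each of the 4 UWB1.289 libraries (adjusted p 1.11e-10). By the exact counting interval HOXB13 was at least 34.45-fold lower in UWB1.289. HOXB5 and HOXB8 were at the floor in both lines. HOXB6 was low in both, with 22 counts over the 4 OVCAR3 libraries and 15 over those of UWB1.289, and HOXB9 was low with 15 and 7.

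HOXC genes had very few counts in UWB1.289. HOXC6 had 103, 94, 88 and 107 counts in OVCAR3 and 0, 0, 0 and 1 in UWB1.289 (adjusted p 2.1e-16), a ratio of 404.5 with an exact 95% counting interval of 72.2 to 16018. HOXC4 had 30, 17, 22 and 39 counts against 0, 0, 2 and 1 (adjusted p 4.13e-09), a ratio of 37.1 with an interval of 12.4 to 183. The groups were far apart for both genes.

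The more tail-ward HOXC genes were low in OVCAR3 and at or near 0 in UWB1.289. HOXC8, HOXC9 and HOXC13 had 23, 25 and 16 counts over the OVCAR3 libraries and 0 in UWB1.289. By the exact counting interval they were at least 5.93-fold, 6.49-fold and 3.98-fold higher in OVCAR3. HOXC10 had 5, 8, 2 and 1 counts against 0, 1, 0 and 5. HOXC11 was at the floor in both lines.

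In the HOXD cluster, HOXD3, HOXD4 and HOXD9 were higher in UWB1.289. HOXD3 had 9, 1, 7 and 2 counts in OVCAR3 and 47, 33, 46 and 58 in UWB1.289 (log2 fold change 3.19 ± 0.379 SE, adjusted p 9.03e-09). HOXD4 had 6, 2, 1 and 3 counts against 52, 28, 49 and 71 (3.94 ± 0.399, 3.46e-10). HOXD9, used in limb and lumbar patterning, had 1, 1, 4 and 6 counts against 55, 29, 46 and 33 (3.68 ± 0.42, 4.07e-09). None of these groups overlapped.

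HOXD1 showed the same direction with 0, 0, 4 and 0 counts in OVCAR3 and 17, 14, 12 and 20 in UWB1.289 (3.77 ± 0.626 SE, adjusted p 3.25e-06), but its average of 8.16 lay under the limit of 10. HOXD8 was higher in UWB1.289 by less than 2-fold (0.67 ± 0.216, adjusted p 0.00602). HOXD11 did not pass the test (-0.68 ± 0.43, adjusted p 0.149). It was differentially expressed and lower in UWB1.289 only without UWB1.289 DMSO replicate 1, whose 25 counts stood apart from 7, 4 and 6. The far end of the cluster ran the other way. HOXD13, which patterns the digits and the genital tubercle, had 24 counts over the OVCAR3 libraries against 0. By the exact counting interval HOXD13 was at least 6.21-fold higher in OVCAR3. HOXD10 had 23 and 4 counts (a ratio of 5.93, interval 2.03 to 23.6).

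**Figure D3:**
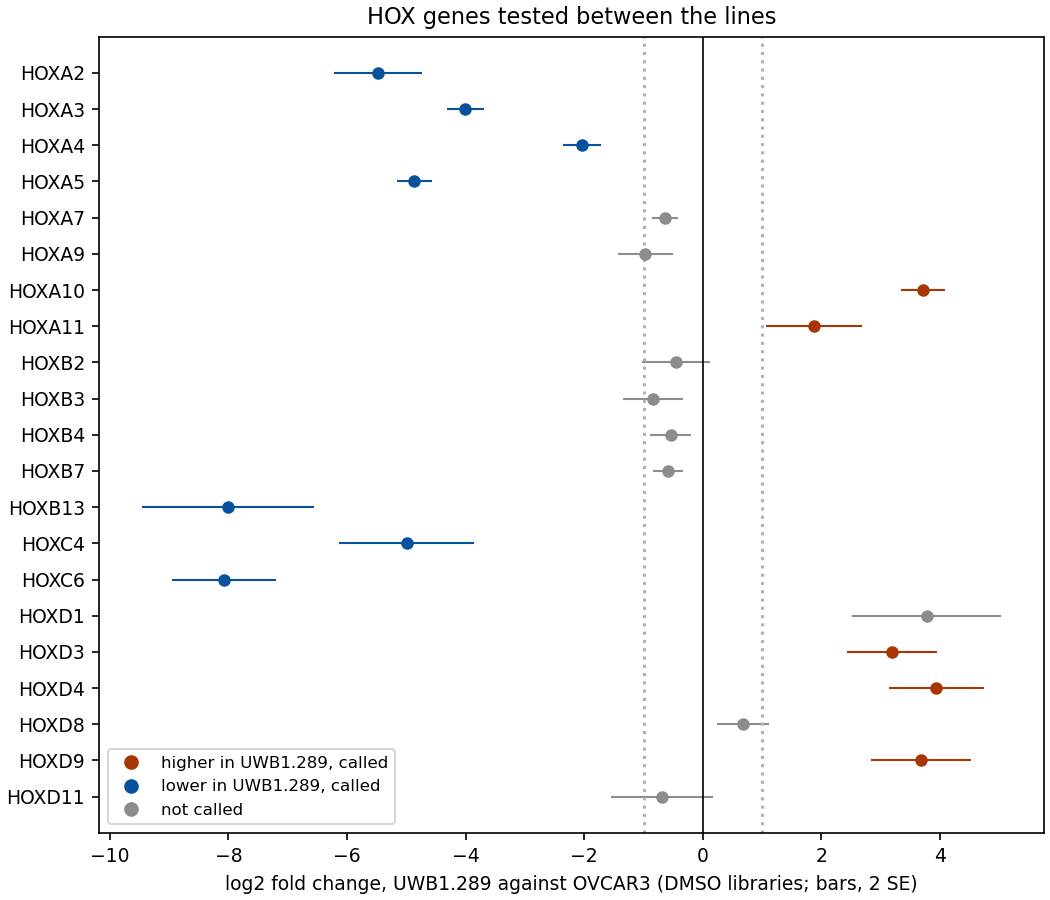
Log2 fold change between the lines (UWB1.289 against OVCAR3, DMSO libraries, bars of 2 SE) for the HOX genes tested, of which 1 is not shown; dotted lines mark 2-fold. The values for HOXB13, HOXC4 and HOXC6 rest on 0 to 3 counts in UWB1.289 and depend on the fit, and the others run from -5.48 for HOXA2 to 3.94 for HOXD4.

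A 3' end that overlaps another transcript can share its reads, since the strand setting of the counting is not given in the sources used here. In the annotation, the last 500 bases lay wholly under an antisense transcript in HOXA7 (HOXA-AS3) and HOXD1, and for 83% in HOXD8 (HOXD-AS2), 47.2% in HOXA4 (HOXA-AS2), 33.2% in HOXB6 (HOXB-AS3) and 19.4% in HOXD3 (HAGLR). Same-strand overlaps held 100% of the last 500 bases of HOXC5, 20.8% of HOXD11 (with HOXD10), 11.2% of HOXA4 and 8.8% of HOXB4 (with HOXB3). The counts of these genes are therefore uncertain, and the other members had no such overlap there.

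In OVCAR3, olaparib was set against DMSO in the 8 libraries of the line. Of 18 members tested, 1 was differentially expressed, against 5.23% of all tested genes, and it was higher (2.9% of all genes were). At an adjusted p below 0.1 alone, 5 of 18 members passed, 1 higher and 4 lower, against 31.5% of all tested genes (15.5% higher and 16% lower). The groups did not overlap for 5 of 18 members, against 25.7%. The median log2 fold change was -0.13 over the members and -0.01 over all tested genes. The members' shares were near those of all genes.

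The differentially expressed member was HOXC8, a trunk-patterning gene. It had 5, 6, 2 and 10 counts with DMSO and 16, 17, 29 and 14 with olaparib. Its log2 fold change was 1.62 ± 0.426 (SE), the adjusted p was 0.00827 and the average count 12.2. The groups did not overlap. The call depended on the limit of 10 for the average, which it missed without OVCAR3 olaparib replicate 3 (log2 fold change 1.38, average 9.97) and over all 16 libraries (average 5.99), with the adjusted p under 0.1 in both. HOXC8 was low with DMSO (mean normalized count 5.83). It passed the filter on low counts and the limit of 10 through its olaparib libraries (mean 18.1). A member this low with DMSO could be called only if it rose.

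The 4 members with lower counts lay in the stretch of the HOXA cluster from HOXA3 to HOXA7, which also holds the untested HOXA6, and each differed by less than 2-fold. HOXA5 had normalized counts of 781, 631, 694 and 879 with DMSO and 442, 511, 552 and 456 with olaparib (log2 fold change -0.60 ± 0.103 SE, adjusted p 0.000193). HOXA4 had 191, 199, 222 and 195 against 114, 158, 124 and 170 (-0.51 ± 0.133, 0.0083). The groups did not overlap for either gene, and both passed the test in every fit that left out a library and under every other tool and setting tried. None of these settings bears on shared reads. HOXA-AS2, which covers 47.2% of the last 500 bases of HOXA4 on the other strand, was also lower with olaparib in OVCAR3 (edgeR log2 fold change -0.72 ± 0.119 SE, adjusted p 0.000154). The part of HOXA-AS2 in the HOXA4 counts of OVCAR3 was not tested.

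HOXA7 had normalized counts of 291, 269, 270 and 258 with DMSO and 234, 210, 212 and 246 with olaparib (log2 fold change -0.27 ± 0.101 SE, adjusted p 0.0632), also without overlap. HOXA3 had 415, 427, 452 and 479 against 326, 420, 421 and 280 (-0.29 ± 0.116, 0.0731), and 2 of its olaparib libraries reached into the DMSO range. Both lost the call when single libraries were left out. HOXA3 missed it without OVCAR3 DMSO replicate 3 or 4 or olaparib replicate 1 or 4 (adjusted p 0.149 to 0.187), and HOXA7 without DMSO replicate 1 or 3 or olaparib replicate 2 or 3 (adjusted p 0.118 to 0.170). HOXA3 also missed it over all 16 libraries (0.185) and HOXA7 without the filter on low counts (0.142).

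The summed normalized count of the HOXA cluster was 1730 to 2003 with DMSO and 1319 to 1505 with olaparib in OVCAR3, which did not overlap. This sum includes the 4 genes above, with HOXA5 alone at a mean of 746 and 490, and is no separate support. Outside the HOXA3 to HOXA7 stretch, HOXA genes did not pass the test. HOXA2 (-0.15, 2 SE interval -0.50 to 0.20), HOXA9 (0.27, -0.06 to 0.61) and HOXA10 (-0.21, -0.99 to 0.57) had intervals that exclude a 2-fold change in either direction. HOXA6, which was not tested, had 5, 8, 4 and 16 counts with DMSO and 0, 3, 3 and 6 with olaparib.

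**Figure D4:**
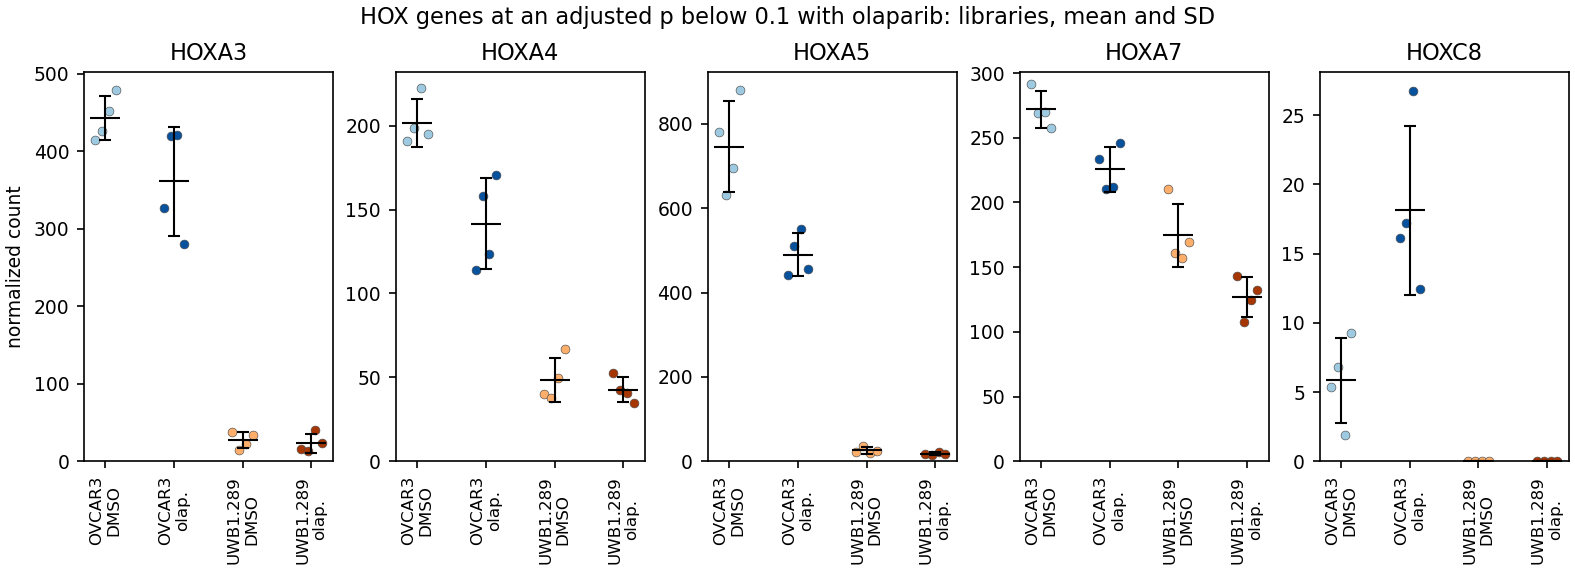
Normalized counts of the 5 HOX genes with an adjusted p below 0.1 for olaparib in either line, each library as a point with the group mean and SD; every axis starts at 0. With olaparib in OVCAR3, HOXA4, HOXA5 and HOXA7 lie below and HOXC8 above all DMSO libraries, HOXA3 overlaps, and HOXA7 lies below all DMSO libraries in UWB1.289 too.

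None of the 5 HOXB genes tested in OVCAR3 passed the test with olaparib. HOXB7 differed by 0.02 (2 SE interval -0.22 to 0.26), HOXB4 by -0.01 (-0.31 to 0.29) and HOXB13 by 0.02 (-0.44 to 0.48) on the log2 scale, with adjusted p from 0.934 to 0.975. HOXB9, which had 4, 3, 2 and 6 counts with DMSO and 22, 15, 9 and 17 with olaparib, was not tested because of the filter on low counts. Without that filter its log2 fold change was 1.97 ± 0.516 (SE) with an adjusted p of 0.00218 and an average of 9.66, under the limit of 10. It became differentially expressed in each of the 4 fits that left out a DMSO library of OVCAR3, where the average rose above 10. Its mean normalized count was 3.79 with DMSO and 15.2 with olaparib, so that leaving out any DMSO library raises the average. These 4 fits are therefore no separate support.

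Some other members low or at the floor with DMSO in OVCAR3 had higher counts with olaparib without a call in the main comparison. Others did not rise, such as HOXA6 (33 counts over the DMSO and 12 over the olaparib libraries), HOXD13 (24 and 23) and HOXD3 (19 and 18). HOXC9 had 6, 4, 7 and 8 counts against 21, 9, 11 and 13 (without the filter 1.03, adjusted p 0.169). HOXA11 had 2, 6, 6 and 9 counts against 13, 8, 19 and 11, and was differentially expressed only in the fit over all 16 libraries (1.05, adjusted p 0.0825). In the main comparison it was not tested because of the filter on low counts. Its mean normalized count was 5.74 and 12.1 in OVCAR3 and 21.3 and 30.7 in UWB1.289, whose libraries raise the average in that fit. The call over all 16 libraries is therefore no separate support. HOXB5 had 1, 0, 1 and 1 counts against 2, 7, 2 and 4, a ratio of 4.72 with an exact 95% counting interval of 1.34 to 25.4. In all, 21 members were expressed with olaparib in OVCAR3 against 17 with DMSO, the additions being HOXA11, HOXB9, HOXC8 and HOXC9. The share of all genes that crossed this limit was not counted.

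HOXC6 (-0.30 ± 0.147 SE, adjusted p 0.156), HOXC4 (0.45 ± 0.254, 0.22), HOXD8 (-0.54 ± 0.246, 0.122) and HOXD11 (0.41 ± 0.377, 0.476) did not pass the test in OVCAR3. HOXD8 had 35, 36, 34 and 36 counts with DMSO and 29, 18, 32 and 24 with olaparib, which did not overlap. HOXD1, HOXD3, HOXD4, HOXD9, HOXD10 and HOXD13 were low in OVCAR3 with and without olaparib and were not tested there.

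In UWB1.289, 18 members were tested for olaparib against DMSO and 0 were differentially expressed by edgeR, against 2.21% of all tested genes. DESeq2 also gave 0. At an unadjusted p below 0.05, 1 member passed in edgeR and 1 in DESeq2, and 3 passed in edgeR with the replicate number as a block, which pairs the libraries of this line. At an adjusted p below 0.1, 1 of 18 passed, against 13.9% of all tested genes, and the groups did not overlap for 1 of 18, against 14.7%. The median log2 fold change was -0.16 over the members and -0.004 over all tested genes.

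The member that passed was HOXA7. It had 215, 149, 152 and 198 counts with DMSO and 134, 93, 120 and 133 with olaparib. Its log2 fold change was -0.46 ± 0.133 (SE), with an adjusted p of 0.0323 in edgeR. The groups did not overlap. Without UWB1.289 DMSO replicate 1 the value was -0.35 with an adjusted p of 0.139. HOXA-AS3, which covers the 3' end of HOXA7 on the other strand, had 0, 0, 0 and 3 counts with DMSO and 3, 1, 1 and 0 with olaparib in UWB1.289. In OVCAR3, HOXA-AS3 had 97, 91, 123 and 99 counts with DMSO and 83, 88, 97 and 87 with olaparib. Its edgeR log2 fold change there was -0.29 ± 0.142 (SE, adjusted p 0.154), without overlap of the groups. The part of HOXA-AS3 in the HOXA7 counts of OVCAR3 was not tested.

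HOXA3, HOXA4 and HOXA5, which were lower with olaparib in OVCAR3, did not pass the test in UWB1.289, where their counts were far lower. HOXA5 had 22, 34, 20 and 28 counts with DMSO and 17, 12, 22 and 17 with olaparib (-0.50, 2 SE interval -1.10 to 0.09). HOXA4 differed by -0.20 (-0.65 to 0.25) and HOXA3 by -0.22 ± 0.346 (SE). HOXA10 had 261, 218, 220 and 298 counts against 193, 220, 220 and 255, a difference of -0.05 with an interval of -0.26 to 0.17.

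The HOXD genes expressed in UWB1.289 did not pass the test with olaparib. HOXD4 differed by 0.07 (2 SE interval -0.36 to 0.51), HOXD3 by -0.15 (-0.61 to 0.30), HOXD9 by -0.16 (-0.74 to 0.42) and HOXD8 by -0.36 ± 0.215 (SE, adjusted p 0.336). HOXD1 had 17, 14, 12 and 20 counts against 3, 16, 5 and 8 (-0.83 ± 0.427, adjusted p 0.252) and was differentially expressed only without UWB1.289 olaparib replicate 2 (-1.46, adjusted p 0.0400). HOXD11 had 25, 7, 4 and 6 counts against 21, 7, 18 and 23 (0.81 ± 0.466, 0.316) and was differentially expressed only without UWB1.289 DMSO replicate 1 (1.69, adjusted p 0.0305).

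Of the remaining genes in UWB1.289, HOXB7 (-0.02, 2 SE interval -0.29 to 0.25), HOXB4 (0.14, -0.24 to 0.52), HOXB3 (0.23 ± 0.265 SE), HOXB2 (-0.40 ± 0.354), HOXA9 (0.07 ± 0.281) and HOXA11 (0.52 ± 0.302) had an adjusted p from 0.326 to 0.957. HOXB9 had 0, 0, 3 and 4 counts with DMSO and 3, 5, 10 and 5 with olaparib (without the filter 1.76, adjusted p 0.247). HOXC genes stayed at or near 0, with 10 counts over the cluster with DMSO and 19 with olaparib. HOXC4 had 3 of these with DMSO and 11 with olaparib, a ratio of 3.97 with an interval of 1.05 to 22.2 that covers counting error only.

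**Figure D5:**
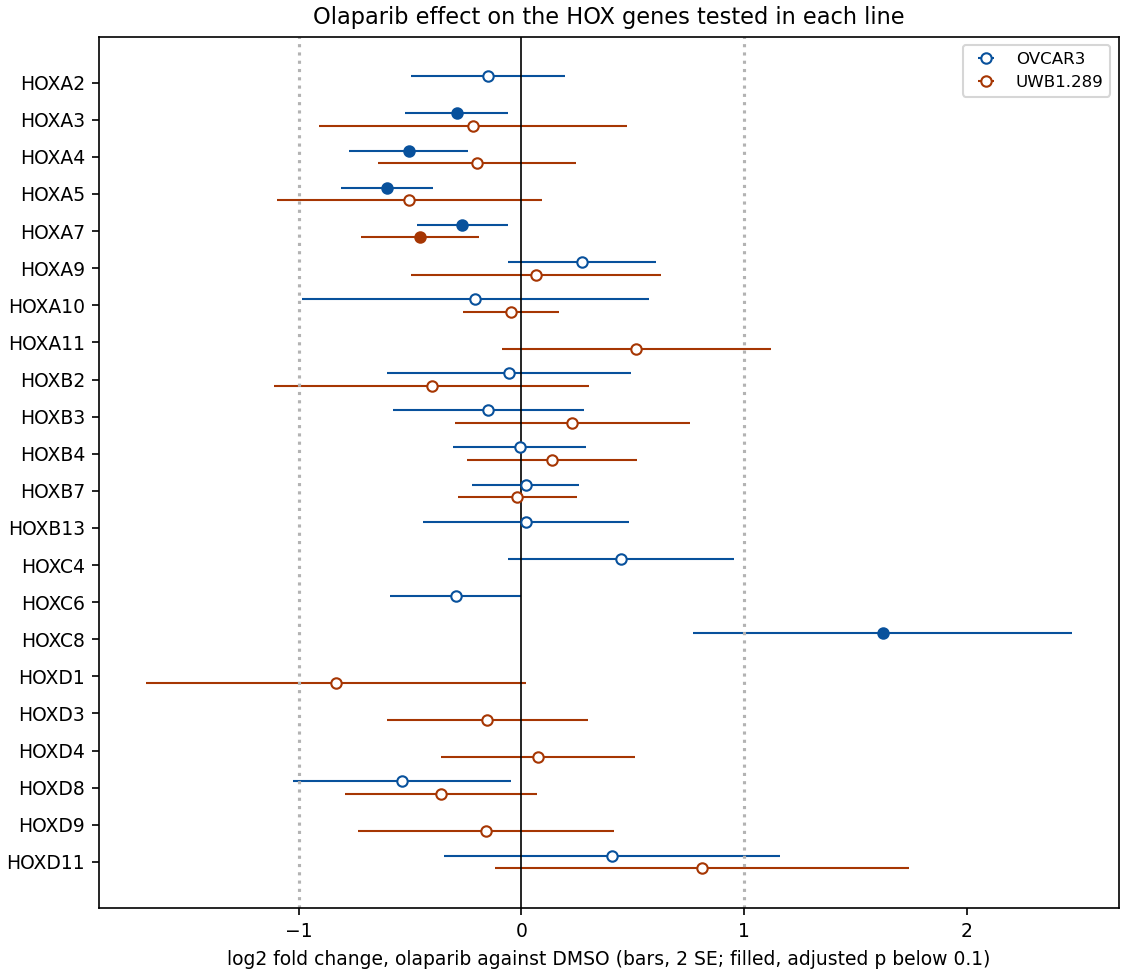
Log2 fold change for olaparib against DMSO (bars of 2 SE) of the HOX genes tested in OVCAR3 (blue) and UWB1.289 (brown), 1 of them not shown, with filled points for an adjusted p below 0.1 and dotted lines at 2-fold. Filled points are HOXA3, HOXA4, HOXA5, HOXA7 and HOXC8 in OVCAR3 and HOXA7 in UWB1.289, and HOXC8 alone lies beyond 2-fold among them.

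The olaparib effect was compared between the lines as an interaction over all 16 libraries. Of 24 members tested, 0 were differentially expressed by edgeR and 0 by DESeq2, against 3.66% of all tested genes. At an adjusted p below 0.1, 0 of 24 passed, against 10.9%, and 0 had an unadjusted p below 0.05 in either tool. For HOXA5 the difference was 0.11 (UWB1.289 minus OVCAR3, 2 SE interval -0.44 to 0.66), for HOXA4 0.31 (-0.20 to 0.81) and for HOXA7 -0.19 (-0.52 to 0.14). The effects on these genes were therefore not shown to differ between the lines. HOXC8 and HOXB13 have 0 counts in UWB1.289, so that their difference has no usable error.

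HOX proteins bind DNA together with TALE homeodomain proteins of the PBX, MEIS and PKNOX families. Of the 9 TALE genes, 8 were tested between the lines, and 5 were differentially expressed, all lower in UWB1.289 (38.4% of all tested genes were differentially expressed and 19.7% lower), among them MEIS3 (-4.10 ± 0.368 SE) and MEIS1 (-2.82 ± 0.123). With olaparib, 1 of 8 TALE genes tested in OVCAR3 was differentially expressed and lower, against 5.23% of all tested genes. In UWB1.289 it was 1 of 7, also lower, against 2.21%. At an adjusted p below 0.1, 4 of 8 passed in OVCAR3 (31.5% of all) and 1 of 7 in UWB1.289 (13.9%). In OVCAR3, MEIS1 (-0.60 ± 0.101) and MEIS2 (-0.65 ± 0.145) were lower and MEIS3 (0.96 ± 0.151) higher within 2-fold. The effect on MEIS3 differed between the lines (-3.40 ± 0.849, adjusted p 0.0104). UWB1.289 had 7, 3, 0 and 4 counts of MEIS3 with DMSO and 0, 0, 1 and 1 with olaparib. The size of this difference therefore depends on the fit.

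Noncoding RNAs of the HOX clusters lie between the coding genes or antisense to them. Of 18 such genes, 7 were tested between the lines and 5 were differentially expressed, 2 higher and 3 lower in UWB1.289, against 38.4% of all tested genes (18.7% higher, 19.7% lower). HAGLR (3.65 ± 0.277 SE) and HAGLROS (3.76 ± 0.191), from the HOXD cluster, were higher, like HOXD3 and HOXD4. HOXA-AS2 and HOXA-AS3, from the HOXA3 to HOXA7 stretch, were lower, with 180, 161, 206 and 226 counts of HOXA-AS2 in OVCAR3 and 2, 3, 2 and 2 in UWB1.289. With olaparib in OVCAR3, HOXA-AS2 had 128, 111, 136 and 120 counts (-0.72 ± 0.119, adjusted p 0.000154) and HAGLROS rose from 11, 18, 17 and 11 to 30, 28, 35 and 27 (0.98 ± 0.294, 0.0188).

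The olaparib effect on HOXA-AS2 (2.77 ± 0.424 SE) and HAGLROS (-1.35 ± 0.294) differed between the lines, both over 2-fold. HOXA-AS2 had 13, 8, 6 and 9 counts with olaparib in UWB1.289, and its value there depends on the 2 to 3 counts with DMSO. HAGLROS had 222, 192, 185 and 206 counts with DMSO and 141, 177, 118 and 137 with olaparib in UWB1.289. The long noncoding RNA HOTAIR, of the HOXC cluster, had 0 counts in each DMSO library of OVCAR3 and 4, 3, 0 and 4 with olaparib.

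Polycomb proteins keep HOX clusters silent and Trithorax proteins keep them active. Of 17 Polycomb genes, all tested, 5 were differentially expressed between the lines, 3 higher and 2 lower in UWB1.289 and against 38.4% of all tested genes, with CBX8 (-2.65 ± 0.27 SE) and CBX2 (-2.34 ± 0.148) lower and BMI1 (1.39 ± 0.119), a subunit of the same complex, higher in UWB1.289. With olaparib, 0 of 17 were differentially expressed in either line, against 5.23% of all tested genes in OVCAR3 and 2.21% in UWB1.289. At an adjusted p below 0.1, 4 of 17 passed in OVCAR3 (31.5% of all) and 0 of 17 in UWB1.289 (13.9%). Of 10 Trithorax and demethylase genes, all tested, 3 were differentially expressed between the lines against the same 38.4%: KMT2B (-1.22 ± 0.119), KDM6B (-1.14 ± 0.165) and PSIP1 (-1.07 ± 0.0647), each lower in UWB1.289. With olaparib, 0 of 10 were differentially expressed and 2 of 10 had an adjusted p below 0.1 in each line, against the same shares of all genes. The 3 CDX genes, which set HOX borders in the gut and trunk, had too few counts to be tested. Of 12 coding genes that flank the clusters, 7 were tested between the lines. Of these, 0 were differentially expressed, against 38.4% of all tested genes, and 5 had an adjusted p below 0.1 (79.9% of all). With olaparib, 0 of 7 were differentially expressed in OVCAR3 (5.23% of all) and 0 of 8 in UWB1.289 (2.21%). At an adjusted p below 0.1 it was 0 of 7 (31.5% of all) and 2 of 8 (13.9%). For the difference, 0 of 8 were differentially expressed (3.66%) and 1 of 8 had an adjusted p below 0.1 (10.9%). The flanking gene SKAP1 had 3, 1, 0 and 1 counts in OVCAR3 and 25, 6, 18 and 24 in UWB1.289 with DMSO.

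Retinoic acid switches on HOX genes at the head-ward ends of the clusters. Of 17 genes of its pathway, 10 were tested between the lines and 6 were differentially expressed, 1 higher and 5 lower in UWB1.289, against 18.7% and 19.7% of all tested genes. CRABP2, which carries retinoic acid to its receptor, had 2187, 2011, 2270 and 2643 counts in OVCAR3 and 26, 37, 13 and 27 in UWB1.289 (-6.51 ± 0.134 SE), and ALDH1A1, which makes retinoic acid, had 92, 78, 119 and 117 against 3, 0, 0 and 0. ALDH1A3, another such enzyme, was higher in UWB1.289 (2.93 ± 0.402). With olaparib, ALDH1A1 fell in OVCAR3 (-1.29 ± 0.176) and ALDH1A3 rose in UWB1.289 (1.14 ± 0.208). The effect on DHRS3, a retinaldehyde reductase, differed between the lines (1.28 ± 0.239).

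Of 10 other factors of the Müllerian duct, 7 were tested between the lines and 6 were differentially expressed, 1 higher and 5 lower in UWB1.289, again against 18.7% and 19.7% of all tested genes. EMX2 had 2835, 2504, 3212 and 2810 counts in OVCAR3 with DMSO and 0 in all 8 UWB1.289 libraries. LHX1 (-4.28 ± 0.124 SE) was lower, and WNT7A, known for patterning the female tract, was higher with 95, 85, 85 and 92 counts in UWB1.289 against 0, 0, 3 and 0. With olaparib in OVCAR3, 0 of 6 tested were differentially expressed, while EMX2 (-0.58), LHX1 (-0.73), WNT5A (-0.65) and DACH1 (-0.78) were lower within 2-fold at an adjusted p below 0.1, without overlap of the groups, 4 of 6 against 31.5% of all tested genes. In UWB1.289, WNT5A (-1.22 ± 0.417, adjusted p 0.0712) was the 1 differentially expressed of 4 tested, against 2.21% of all tested genes. It had 19, 13, 16 and 18 counts there with DMSO and 9, 1, 9 and 7 with olaparib.

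Markers of the epithelial cell type moved with olaparib in OVCAR3 as well: the summed normalized count of the 13 epithelial markers was 35757 to 37776 with DMSO and 22643 to 24973 with olaparib, with 10 of 13 at an adjusted p below 0.1 against 31.5% of all tested genes. Of these, 9 were lower, KRT8 and KRT18 by more than 2-fold, and KRT7 was higher (0.19). In UWB1.289 the summed normalized count of the 4 immune markers was 49.6 to 75.2 with DMSO and 100.3 to 127.9 with olaparib. That of the 5 fibroblast markers was 284 to 395 and 163 to 205. It was mostly COL1A2 (mean 314 and 153), while COL1A1 did not fall (24.7 and 28.9). In OVCAR3 the fibroblast sum was 141 to 199 with DMSO and 199 to 255 with olaparib. The sum of the 13 epithelial markers in UWB1.289 was 55670 to 59353 and 44616 to 54070. KRT18 alone had a mean of 27250 and 20603 there. Of 12 epithelial markers tested in UWB1.289, 2 were higher and 2 lower at an adjusted p below 0.1, against 13.9% of all tested genes. In both UWB1.289 groups 1 immune marker (CD3E) and 3 fibroblast markers (COL3A1, DCN and LUM) had 0 counts in every library. The part of these shifts in the HOX results was not tested.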

How the data were processed

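Gene counts of 16 libraries were analysed, 4 in each of 4 groups formed from the sample labels. The authors made QuantSeq 3' mRNA libraries, used BBDuk for trimming of single-end reads and STAR 2.7.9a for alignment to hg38, and deposited raw counts per gene from featureCounts 2.0.0 (GENCODE release 38). Gene positions were taken from GENCODE release 44 on the same build. Total counts per library were 5599571 to 7730228. Tests used edgeR 4.0.16 under R 4.3.3, namely the quasi-likelihood F test after TMM scaling and filterByExpr, and p-values were adjusted over all tested genes by Benjamini-Hochberg. DESeq2 1.42.0, its size factors, no filter, all 16 libraries, a replicate block and leaving out each library were alternatives. Standard errors are the log2 fold change over the square root of F. Scripts were tested on simulated data. Members were named, with full values for members differentially expressed in any comparison or at an adjusted p below 0.1 with olaparib, and up to 3 members of each other list per comparison. Members and lists were chosen with earlier results of these data known. Genes such as HOXB9, HOXC9, HOXA11, HOTAIR and those of the MEIS family within 2-fold were named after their values were seen.

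The printed values come from fits without the replicate block. Replicate numbers met the criterion for pairs in UWB1.289, where samples with the same number deviated together (correlations 0.126 to 0.212 over 9541 genes), and not in OVCAR3 (0.00947 to 0.140) or between the lines (-0.006 to 0.022). None of the 24 pairs of libraries within groups was identical. Some genes and sequences are not reported here.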

Additional observations from a re-analysis of the deposited data

Results flagged for a closer look

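Of the 73 groups of 4 libraries examined for expressed HOX genes, 3 held a library that stood apart from the others of its group by Dixon's ratio of gap to range, and chance gives about 1 in 20 such groups. HOXD11 had a normalized count of 24.4 in UWB1.289 DMSO replicate 1, with 4.14 to 7.57 in the other libraries of the group. In OVCAR3 DMSO replicate 4 it had 23.2, with 13.9 to 14.8 in the others. HOXD8 had 58.8 in UWB1.289 olaparib replicate 2, with 38.5 to 41.7 in the others.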

How the results depend on the processing

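No differentially expressed HOX gene changed direction under the alternatives that were run. Several differences that did not pass the test changed sign when single libraries were left out, with olaparib those of HOXB13 in OVCAR3 (-0.09 to 0.10) and of HOXA10 (-0.09 to 0.01), HOXD4 (-0.09 to 0.21) and HOXD9 (-0.40 to 0.07) in UWB1.289, and, for the olaparib response of one line minus that of the other, those of HOXA2, HOXA3, HOXA5, HOXA10, HOXB13, HOXD3 and HOXD4 (HOXA5 -0.03 to 0.31, HOXA2 -1.79 to 0.78). In OVCAR3 with olaparib, 1 HOX gene was differentially expressed and higher, 0 when the average count had to exceed 50, and 0 to 2 when single libraries were left out; 0 were lower, 0 when single libraries were left out, and 4 with no fold-change threshold. In UWB1.289 with olaparib, 0 were higher or lower, 0 to 1 in each direction when single libraries were left out, and 1 lower with no fold-change threshold. Between the lines, 5 were higher and 7 lower, 1 and 4 with an average above 50, 12 lower with no fold-change threshold, and 7 to 9 lower when single libraries were left out (5 higher throughout). In the olaparib libraries instead of the DMSO libraries, 14 were differentially expressed between the lines, with HOXA9 and HOXB9 added to the 12. With a mean above 50 in place of 10, 9 members were expressed in OVCAR3 (main value 17) and 5 in UWB1.289 (18). The fit with the replicate block gave the same counts of differentially expressed HOX genes, 1 in OVCAR3, 0 in UWB1.289, 12 between the lines and 0 for the difference. With the block, HOXD11 also reached an adjusted p below 0.1 between the lines (0.0966, 20 members against 19). In OVCAR3 and between the lines the pairing was not borne out, and in OVCAR3 replicates 1 and 3 correlated best with another number. For single genes, 831 values stayed on their side of the threshold, 10 lost and 6 gained it. At this depth, HOXC9 with 4 to 8 counts per DMSO library in OVCAR3 had a standard error of 0.482 for the log2 fold change with olaparib, fitted without the filter.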
